A study of Homo sapiens with 12 samples.

Results

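The genes described here are 9 angiogenic factors and endothelial-type genes, VEGFA, VEGFC, FLT1, ANGPT1, ANGPT2, TIE1, FGF2, HGF and ESM1. They were chosen by symbol from the 27106 genes of a normalized count table, and all 9 were found. Each of the 9 held at least 10 normalized counts in every one of the 12 libraries, so the filter on low values removed no member.

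The libraries were made from polyadenylated RNA of IMR90, which are fibroblasts of human lung, here with hTERT (the catalytic subunit of telomerase) and with RasERT2, an oncogenic Ras that tamoxifen switches on. Doxycycline (0.5 ug/ml) first induced either shIL1R, a short hairpin that targets the receptor of interleukin-1 (genotype labelled IL1R KD), or shScr, a scramble hairpin (labelled WT), and 200 nM tamoxifen or ethanol followed. Cells were collected on day 0 (growing), day 4 (beginning to senesce) and day 10 (senescent), which gives shIL1R and shScr groups on each of 3 days with 2 libraries each, 12 in all. Every group therefore shares the hTERT line, the Ras construct and doxycycline, and the labels do not say which libraries received ethanol. The series used 2 hairpins against the receptor, and whether replicates 1 and 2 of shIL1R are different hairpins or separate cultures is not given, so p-values measure only the spread between these libraries. A single cell line was studied.

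Angiogenic factors are secreted proteins that drive blood and lymph vessels to sprout and mature. VEGFA and VEGFC act on tyrosine kinase receptors of endothelial cells (KDR, FLT1 and FLT4), the angiopoietins on TEK with its partner TIE1, FGF2 on the FGF receptors, and HGF, a product of fibroblasts, on MET. Senescent fibroblasts secrete a mixture of cytokines, proteases and growth factors, the senescence-associated secretory phenotype, and interleukin-1 signalling is one of its known regulators.

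The targeted gene was checked first. IL1R1 held 731 and 378 normalized counts in the shIL1R libraries on day 0, 272 and 86.4 on day 4, and 295 and 280 on day 10. In shScr it held 1509 and 1552 on day 0, 1546 and 1423 on day 4, and 1580 and 1240 on day 10. Every shIL1R library was below every shScr library, and the difference passed the test on day 4 (log2 fold change −3.27 ± 0.42, SE, limma adjusted p = 0.0205) and day 10 (−2.28 ± 0.42, limma adjusted p = 0.0102) but not on day 0 (−1.54 ± 0.42, limma adjusted p = 0.281). Read depth was 24140324 to 30127727 gene-assigned reads per library, recovered from the normalized values. The shIL1R day 10 replicate 2 library stood apart from its partner, at 45.9 against 77.2 on a first principal component where the shScr day 10 libraries sat at 90.5 and 89.2. Several results on day 10 in shIL1R are therefore also given without that library, though not every call that it changes. RNA45S5, the precursor of ribosomal RNA, took 1.34% to 1.47% of counts on day 0, 1.77% to 3.41% on day 4 (3.41% in shScr replicate 2) and 2.51% to 3.0% on day 10, and its part in the changes over days was not tested. HRAS, a Ras gene, was lower in shIL1R on day 10 (37518 and 25280 normalized counts, against 51791 and 50789 in shScr, limma adjusted p = 0.0257), and its part in the genotype differences was not tested.

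Promoter sequence was available for 6 of the 9 genes (VEGFC, FLT1, TIE1, FGF2, HGF and ESM1) from RefSeq on GRCh38.p14, as 250 bases before and 50 after the transcription start. The promoters of the 4 genes that the genotype and time results turn on are shown, FGF2 (chr4:122826581-122826880, plus strand), HGF (chr7:81769998-81770297, minus strand), ESM1 (chr5:54985544-54985843, minus strand) and TIE1 (chr1:43300732-43301031, plus strand). Capitals mark matches to the searched motifs.
FGF2: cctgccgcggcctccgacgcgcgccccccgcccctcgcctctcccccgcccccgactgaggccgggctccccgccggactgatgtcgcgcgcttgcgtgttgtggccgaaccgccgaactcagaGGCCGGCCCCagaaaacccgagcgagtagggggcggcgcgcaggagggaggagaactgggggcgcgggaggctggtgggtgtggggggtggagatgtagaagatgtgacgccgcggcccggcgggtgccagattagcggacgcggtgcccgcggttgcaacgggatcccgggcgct
HGF: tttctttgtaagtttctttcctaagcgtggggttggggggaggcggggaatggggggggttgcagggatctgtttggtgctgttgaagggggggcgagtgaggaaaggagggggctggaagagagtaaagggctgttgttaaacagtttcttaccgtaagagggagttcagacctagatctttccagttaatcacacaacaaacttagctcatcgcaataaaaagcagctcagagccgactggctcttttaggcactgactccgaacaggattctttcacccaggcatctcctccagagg
ESM1: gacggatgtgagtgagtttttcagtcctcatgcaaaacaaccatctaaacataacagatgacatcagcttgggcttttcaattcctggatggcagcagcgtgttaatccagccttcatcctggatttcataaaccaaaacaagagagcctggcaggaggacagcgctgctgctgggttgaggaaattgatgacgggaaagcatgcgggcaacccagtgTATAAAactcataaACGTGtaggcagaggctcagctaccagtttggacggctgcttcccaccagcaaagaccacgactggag
TIE1: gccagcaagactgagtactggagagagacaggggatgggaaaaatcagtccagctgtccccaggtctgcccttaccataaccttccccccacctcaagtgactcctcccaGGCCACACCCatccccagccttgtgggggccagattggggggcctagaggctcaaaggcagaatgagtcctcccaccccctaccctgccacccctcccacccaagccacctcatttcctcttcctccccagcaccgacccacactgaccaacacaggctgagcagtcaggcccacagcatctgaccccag

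Both strands were searched for TATAAA (the TATA box), TGANTCA (AP-1), TGACGTCA (the cyclic AMP response element), ACGTG (the core of the hypoxia response element), a loose NF-kB motif (GGG and CC with any 5 bases between them) and CCGGAA (ETS factors). In ESM1, a TATAAA match began at position −32 from the start and an ACGTG match at −18, motifs that 11.5% and 21.4% of 35116 promoters hold. TIE1 and FGF2 each held a match to the loose NF-kB motif, which 58.7% of all promoters share, and the HGF window held none of the 6 motifs. FGF2 (74.7% G and C) and TIE1 (61.3%) lay above the median of all promoters (58.7%), and HGF (51.0%) and ESM1 (49.3%) below it. A match describes letters in a window and no binding was measured.

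Over the days of Ras induction, most of the 9 genes changed in both genotypes. VEGFA, TIE1 and FGF2 had their highest mean on day 10, VEGFC, HGF, ANGPT2, ESM1 and FLT1 had theirs on day 4, and ANGPT1 was highest on day 0, in shIL1R and in shScr. These days describe the means and were not tested. In the limma fit of group means to all 12 libraries, neither FLT1 in either genotype nor FGF2 in shIL1R passed the test between any days.

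Between day 4 and day 0, 7 of 9 genes were called in shIL1R cells (6 higher and 1 lower), where 40.4% of all 13924 tested genes were called, 20.1% higher and 20.3% lower. In shScr cells 7 were called (all higher), against a background of 38.3% (19.4% higher, 18.9% lower). A gene was called when its limma p-value, adjusted over all tested genes, was below 0.05, and log2 fold changes are given ± SE. Between day 10 and day 0, 5 were called in shIL1R (3 higher and 2 lower, background 60.3%, of which 30% higher and 30.3% lower). In shScr 6 were called (4 higher and 2 lower, background 63.8%, of which 32.5% higher and 31.3% lower). These shares of the 9, 55.6% in shIL1R and 66.7% in shScr, are near the background. Between day 10 and day 4, 7 were called in shIL1R (2 higher and 5 lower, background 35.9%, of which 17.6% higher and 18.3% lower). In shScr 8 were called (3 higher and 5 lower, background 44.1%, of which 21.7% higher and 22.4% lower). The median log2 fold change of the 9 genes from day 0 to day 4 was 0.70 in shIL1R and 1.07 in shScr, against −0.01 for all tested genes in each. Comparisons that use the same day share its libraries, so their values are set side by side and not counted as independent. In bulk RNA, fewer cells of a type and less RNA per cell cannot be told apart.

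**Figure D1:**
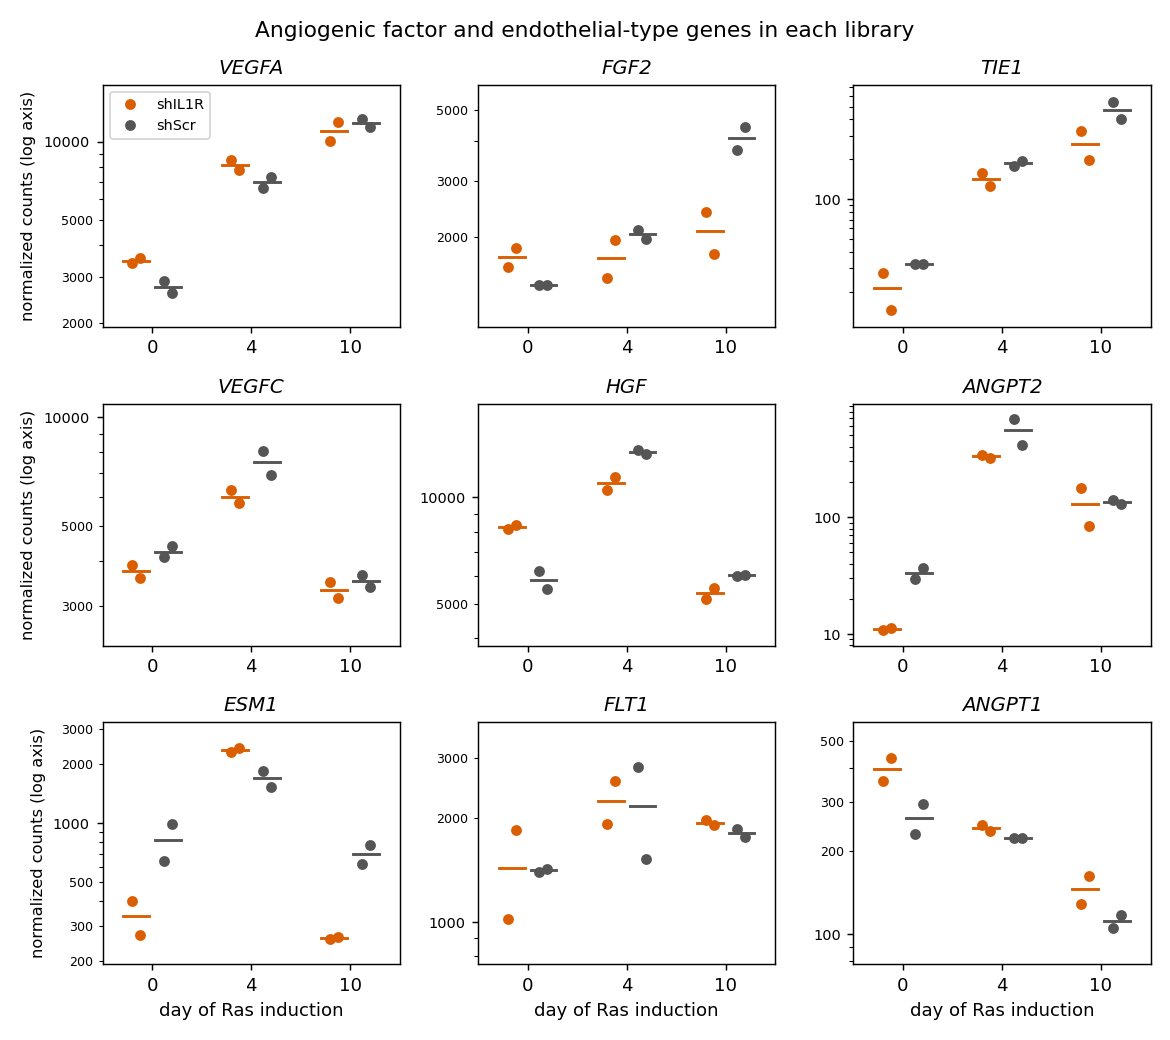
Normalized counts (log axis) of the 9 genes in each library by day of Ras induction, one panel per gene. Points are libraries, bars are means of 2 libraries, orange is shIL1R and grey is shScr. FGF2 reached 3762 and 4442 in shScr on day 10, above both shIL1R libraries, and ANGPT2 and ESM1 were highest on day 4.

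VEGFA, the main growth factor for blood vessel endothelium, had the highest level per exon length of the 9 on day 10. It held 3390 and 3556 normalized counts in the shIL1R libraries on day 0, 8520 and 7754 on day 4, and 10056 and 11932 on day 10. The shScr libraries had 2895 and 2607 on day 0, 6640 and 7304 on day 4, and 12259 and 11379 on day 10. The days did not overlap within either genotype, and day 10 was the only day on which the genotypes overlapped. From day 0 to day 10 VEGFA rose by a log2 fold change of 1.66 ± 0.10 in shIL1R (limma adjusted p = 2.77e-07) and of 2.10 ± 0.10 in shScr (limma adjusted p = 3.78e-08). Its further rise from day 4 to day 10 was 0.43 ± 0.10 in shIL1R (limma adjusted p = 0.00758), which was not called without shIL1R day 4 replicate 2 (0.36, limma adjusted p = 0.0618) or with the compared groups fitted alone (limma adjusted p = 0.0803), and 0.76 ± 0.10 in shScr (limma adjusted p = 0.000184). In descending order the group means ran shScr day 10, shIL1R day 10, shIL1R day 4, shScr day 4, shIL1R day 0 and shScr day 0, and only the first pair overlapped.

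VEGFC, which acts mainly on lymphatic endothelium, was transiently higher. In shIL1R cells it held 3905 and 3583 normalized counts on day 0, 6274 and 5783 on day 4, and 3494 and 3150 on day 10. In shScr cells the counts were 4106 and 4393 on day 0, 8086 and 6931 on day 4, and 3665 and 3388 on day 10. Day 4 stood above the other days in both genotypes, and on day 10 every library was below the day 0 libraries of its genotype. The rise to day 4 was 0.69 ± 0.10 in shIL1R (limma adjusted p = 0.000368) and 0.82 ± 0.10 in shScr (limma adjusted p = 0.000107), and from day 4 to day 10 VEGFC fell, with −0.86 in shIL1R (limma adjusted p = 0.00012) and −1.09 in shScr (limma adjusted p = 1.96e-05). Day 10 was lower than day 0 in shScr (−0.27 ± 0.10, limma adjusted p = 0.0322), a call lost without any one of shScr day 0 replicate 1 (−0.32, limma adjusted p = 0.0577), shScr day 0 replicate 2 (−0.22, limma adjusted p = 0.17) and shScr day 10 replicate 2 (−0.21, limma adjusted p = 0.166). The same comparison in shIL1R gave −0.17 ± 0.10 (limma adjusted p = 0.15). The order of means was shScr day 4, shIL1R day 4, shScr day 0, shIL1R day 0, shScr day 10 and shIL1R day 10, and the last 3 groups overlapped their neighbours.

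FLT1 encodes a receptor for VEGFA that also occurs as a secreted form that binds VEGFA away from other receptors. It held 1021 and 1851 normalized counts in shIL1R on day 0, 1933 and 2570 on day 4, and 1977 and 1909 on day 10. Its shScr counts were 1396 and 1431 on day 0, 2814 and 1527 on day 4, and 1868 and 1773 on day 10. The spread between replicates was wide on day 0 in shIL1R and on day 4 in shScr, and FLT1 passed the test in none of the 11 comparisons (3 time comparisons in each genotype, the genotypes on each day, and 2 interactions). Its smallest unadjusted result was between day 4 and day 0 in shIL1R, with a log2 fold change of 0.70 (95% interval 0.07 to 1.33, limma adjusted p = 0.0728). Without shIL1R day 0 replicate 2 that difference was 1.13 (limma adjusted p = 0.0176), and in shScr the same comparison without shScr day 4 replicate 2 gave 0.99 (limma adjusted p = 0.0238). Between the genotypes on day 10 the interval ran from −0.54 to 0.72.

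**Figure D2:**
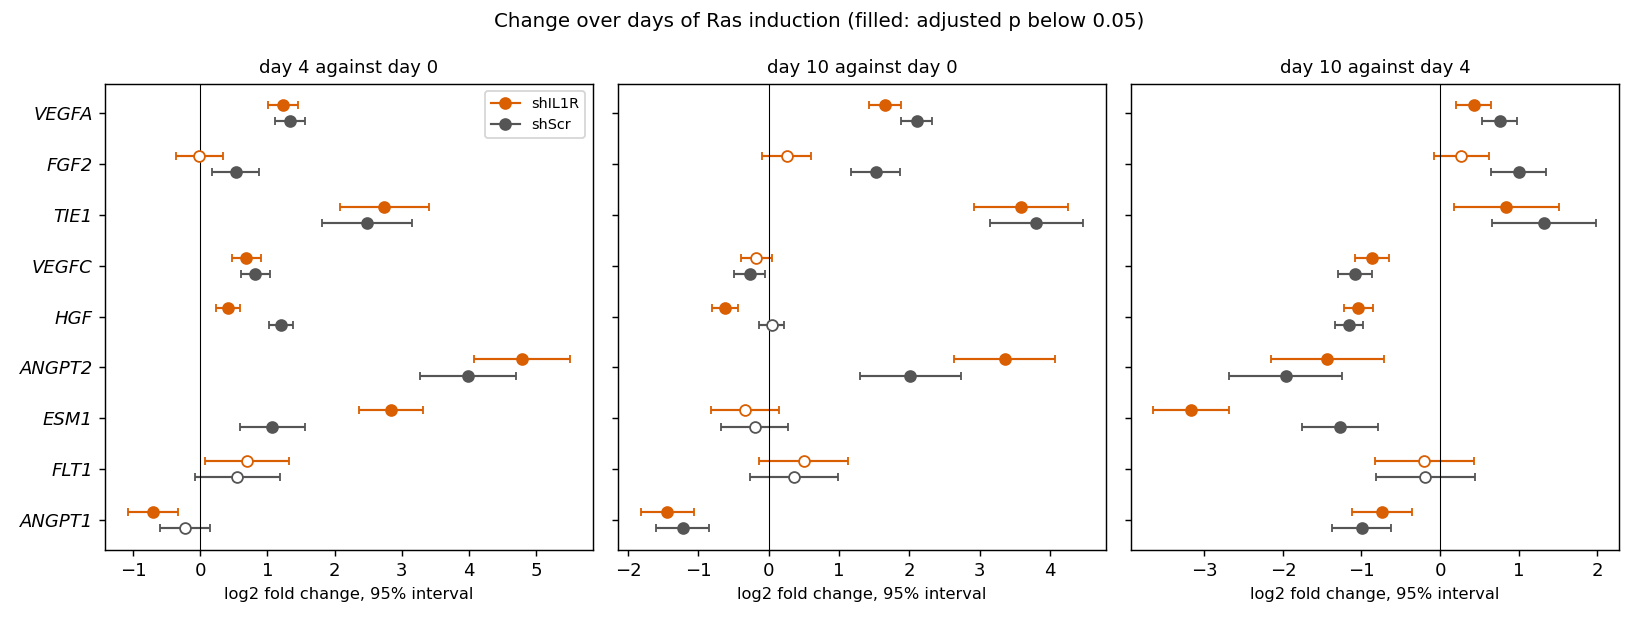
Log2 fold changes between days for the 9 genes with 95% intervals from the limma fit, shIL1R in orange above shScr in grey. Filled points have an adjusted p below 0.05. ANGPT2 (4.79 in shIL1R, 3.98 in shScr) lies farthest to the right between day 4 and day 0, and FLT1 is open in every panel.

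ANGPT1 and ANGPT2 encode ligands of the receptor TEK. ANGPT1 activates it and steadies vessels, and ANGPT2 can act as its antagonist. Between day 10 and day 0 ANGPT1 fell and ANGPT2 rose in both genotypes.

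ANGPT1 held 358 and 434 normalized counts in shIL1R on day 0, 248 and 236 on day 4, and 128 and 163 on day 10. In shScr it held 230 and 296 on day 0, 222 and 224 on day 4, and 105 and 117 on day 10. All 4 day 10 libraries lay below all 8 earlier ones. From day 0 to day 10 ANGPT1 fell, with log2 fold changes of −1.44 in shIL1R (limma adjusted p = 3.05e-05) and −1.22 in shScr (limma adjusted p = 8.83e-05). Between day 4 and day 0 it fell by 0.70 in shIL1R (limma adjusted p = 0.00794), which was not called without shIL1R day 0 replicate 2 (−0.56, limma adjusted p = 0.078), and the shScr value was −0.23 ± 0.17 (limma adjusted p = 0.33). The order of means was shIL1R day 0, shScr day 0, shIL1R day 4, shScr day 4, shIL1R day 10 and shScr day 10, and shScr day 0 overlapped shIL1R day 4.

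ANGPT2 showed the widest range of the 9 genes, with group means that spanned 5.48 on the log2 scale. It held 10.8 and 11.2 normalized counts in shIL1R on day 0, 341 and 321 on day 4, and 177 and 83.5 on day 10. For shScr they were 29.4 and 36.7 on day 0, 693 and 412 on day 4, and 142 and 131 on day 10. Day 0 was lowest and day 4 highest in both genotypes without overlap, and the genotypes overlapped only on day 10. The ratio of the day 4 mean to the day 0 mean was 30.1 in shIL1R and 16.7 in shScr, and on the log2 scale ANGPT2 rose by 4.79 ± 0.33 (limma adjusted p = 4.23e-06) and 3.98 ± 0.33 (limma adjusted p = 9.92e-06) in these genotypes. From day 4 to day 10 it fell, with −1.43 in shIL1R (limma adjusted p = 0.00618, or −0.90 without shIL1R day 10 replicate 2, limma adjusted p = 0.0271) and −1.97 in shScr (limma adjusted p = 0.000729). Day 10 still lay above day 0, by 3.36 ± 0.33 in shIL1R (limma adjusted p = 6.52e-06) and 2.02 ± 0.33 in shScr (limma adjusted p = 0.000245). ANGPT2 lies on the opposite strand within MCPH1 (GENCODE v29), and the strand setting of the counting is not given. MCPH1 held 351 to 524 normalized counts and passed the test in none of the comparisons.

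TIE1 encodes a receptor kinase that is mostly confined to endothelium and pairs with TEK. Its promoter is the fourth one printed above. It held 27.8 and 14.6 normalized counts in shIL1R on day 0, 157 and 126 on day 4, and 325 and 199 on day 10. In shScr the libraries had 32.2 and 32.5 on day 0, 177 and 195 on day 4, and 539 and 403 on day 10. The 6 groups did not overlap at all, and on each day both shIL1R libraries were below both shScr libraries. From day 0 to day 10 TIE1 rose by 3.59 ± 0.30 in shIL1R (limma adjusted p = 2.4e-06) and by 3.81 ± 0.30 in shScr (limma adjusted p = 1.15e-06), the largest change among the 9 genes in shScr over that interval. The rise from day 4 to day 10 was 1.32 ± 0.30 in shScr (limma adjusted p = 0.00488). In shIL1R it was 0.85 ± 0.30 (limma adjusted p = 0.0492), a call lost in 13 of 23 alternative settings and at its lowest 0.49 without shIL1R day 10 replicate 1 (limma adjusted p = 0.267). Its order of means was shScr then shIL1R on day 10, the same on day 4, and the same on day 0.

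FGF2, a growth factor for fibroblasts and endothelial cells, held 1614 and 1849 normalized counts in shIL1R on day 0, 1493 and 1963 on day 4, and 2403 and 1771 on day 10. Its counts in shScr were 1417 and 1421 on day 0, 2106 and 1981 on day 4, and 3762 and 4442 on day 10. The days overlapped throughout in shIL1R and did not overlap in shScr. FGF2 rose in shScr by 1.53 ± 0.16 from day 0 to day 10 (limma adjusted p = 9.1e-06) and by 1.00 ± 0.16 from day 4 to day 10 (limma adjusted p = 0.000566). Its earlier rise in shScr, 0.53 ± 0.16 from day 0 to day 4 (limma adjusted p = 0.0227), was not called once any one of the 4 libraries compared was left out (limma adjusted p = 0.0615 to 0.114). In shIL1R the values from day 0 were −0.01 ± 0.16 to day 4 and 0.26 ± 0.16 to day 10 (limma adjusted p = 0.958 and 0.184). From day 4 to day 10 the shIL1R value was 0.27 ± 0.16 (limma adjusted p = 0.213). Without shIL1R day 10 replicate 2 the values to day 10 became 0.48 from day 0 and 0.49 from day 4, and both changed their call. FGF2 overlaps NUDT6 on the opposite strand (GENCODE v29), which held at most 56.0 normalized counts in any library.

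HGF held 8137 and 8343 normalized counts in shIL1R on day 0, 10529 and 11460 on day 4, and 5144 and 5560 on day 10. The shScr counts were 6186 and 5503 on day 0, 13653 and 13275 on day 4, and 5978 and 6051 on day 10. Day 4 was highest in both genotypes, and day 10 lay below day 0 without overlap in shIL1R but overlapped it in shScr. HGF rose to day 4 by 0.41 ± 0.08 in shIL1R (limma adjusted p = 0.00254) and by 1.21 ± 0.08 in shScr (limma adjusted p = 3.09e-06). From day 4 to day 10 it fell, with −1.04 in shIL1R (limma adjusted p = 1.83e-05) and −1.16 in shScr (limma adjusted p = 4.49e-06). Against day 0, day 10 was lower in shIL1R (−0.62 ± 0.08, limma adjusted p = 6.59e-05), and the shScr value was 0.04 ± 0.08 (limma adjusted p = 0.659).

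ESM1 encodes endocan, a secreted proteoglycan of activated endothelium. It held 401 and 269 normalized counts in shIL1R on day 0, 2305 and 2405 on day 4, and 259 and 263 on day 10. In shScr it held 641 and 991 on day 0, 1843 and 1528 on day 4, and 621 and 777 on day 10. The day 4 libraries stood above all others in both genotypes, and the shIL1R libraries were below the shScr ones on days 0 and 10 but above them on day 4. The rise to day 4 was 2.84 ± 0.22 in shIL1R (limma adjusted p = 9.42e-06) and 1.07 ± 0.22 in shScr (limma adjusted p = 0.00281), and the fall from day 4 to day 10 was −3.17 ± 0.22 in shIL1R (limma adjusted p = 1.1e-05) and −1.27 ± 0.22 in shScr (limma adjusted p = 0.000909). Day 10 against day 0 passed the test in neither genotype.

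The comparison of shIL1R with shScr asks how far the receptor's depletion changed these genes. On day 10, 2 of the 9 were lower in shIL1R, ESM1 and FGF2, and none was higher, where 9.21% of all tested genes were called in either direction, 4.37% higher and 4.85% lower. None was called on day 0 (background 0.0646%, of which 0.0287% higher and 0.0359% lower) or on day 4 (background 0.28%, of which 0.0431% higher and 0.237% lower). At an unadjusted p below 0.05 the limma fit had 5 members on day 0 and 3 on day 4, and the share of all genes at that level was not counted. No member was called by edgeR on either day, where it called 9 and 43 of all tested genes. DESeq2 called 3 members on day 0 (ANGPT2, ESM1 and HGF) and 1 on day 4 (HGF), with 136 and 469 of all tested genes called. The median log2 fold change of the 9 genes on day 10 was −0.16, against −0.00338 for all tested genes.

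ESM1 on day 10 had 259 and 263 normalized counts in shIL1R, against 621 and 777 in shScr, a ratio of means of 0.374. The log2 fold change was −1.41 ± 0.22 (limma adjusted p = 0.00512) and did not pass without shScr day 10 replicate 2 (−1.25, limma adjusted p = 0.0661). The difference on day 0, with 401 and 269 in shIL1R and 641 and 991 in shScr, did not pass (−1.27 ± 0.22, limma adjusted p = 0.068). Day 4 gave 0.49 ± 0.22 (limma adjusted p = 0.267). The change of ESM1 from day 0 to day 10 in shIL1R minus that in shScr was −0.13 ± 0.31 (limma adjusted p = 0.855).

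FGF2 on day 10 had 2403 and 1771 normalized counts in shIL1R, against 3762 and 4442 in shScr, a ratio of means of 0.509. The log2 fold change was −0.99 ± 0.16 (limma adjusted p = 0.00557), and it did not pass without shScr day 10 replicate 2 (−0.87, limma adjusted p = 0.0755) or when the day 10 groups were fitted alone (limma adjusted p = 0.074). Without shIL1R day 10 replicate 2, the library that stood apart, it was −0.77 (limma adjusted p = 0.0243). On days 0 and 4 the values were 0.28 ± 0.16 and −0.25 ± 0.16 (limma adjusted p = 0.662 and 0.425).

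**Figure D3:**
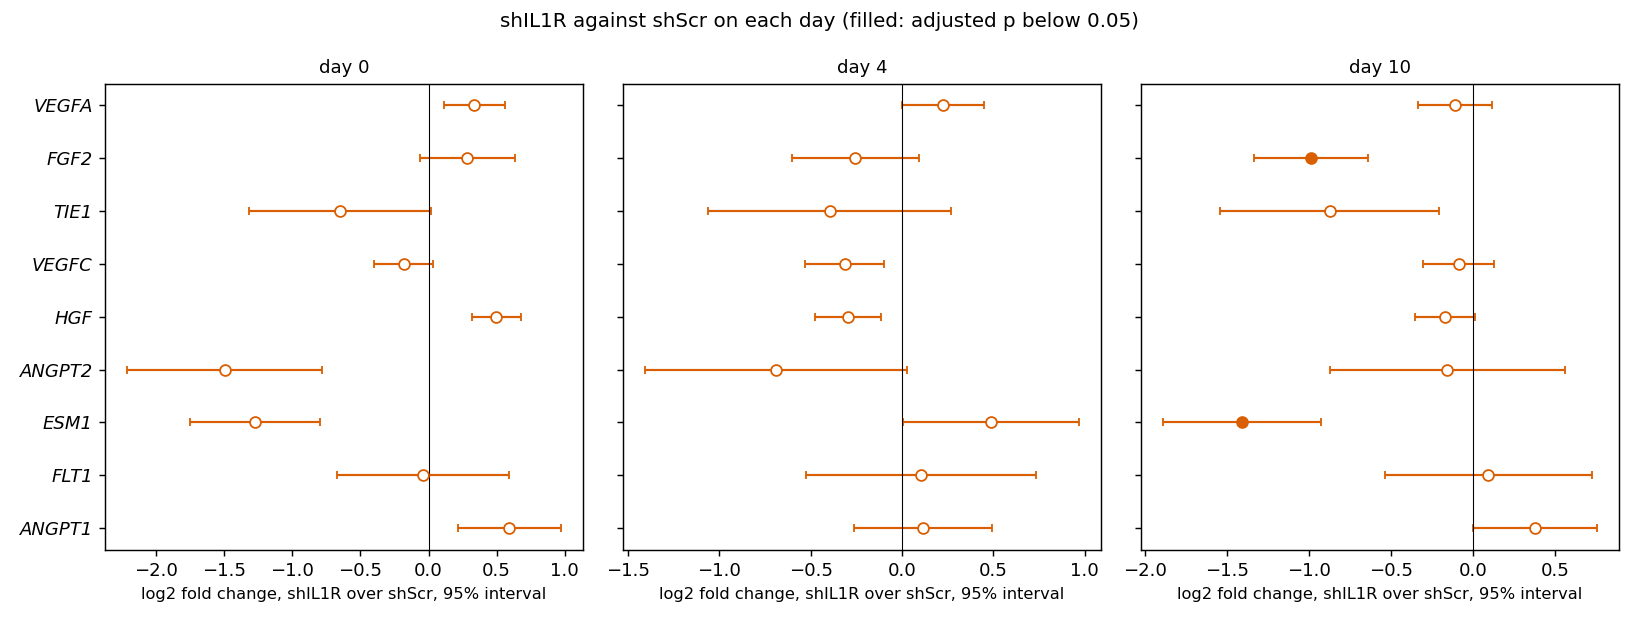
Log2 fold changes of shIL1R over shScr on each day for the 9 genes, with 95% intervals from the limma fit. Filled points have an adjusted p below 0.05. Only ESM1 (−1.41) and FGF2 (−0.99) on day 10 are filled.

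The other 7 genes were not called between genotypes on any day by limma. DESeq2 also called TIE1 on day 10 (−0.85, DESeq2 adjusted p = 0.0222), where it called 1694 of all tested genes. TIE1 was 325 and 199 normalized counts in shIL1R and 539 and 403 in shScr on day 10 (−0.87 ± 0.30, 95% interval −1.54 to −0.21, limma adjusted p = 0.0948). Without shIL1R day 10 replicate 1 the log2 fold change was −1.23, and without replicate 2, the library that stood apart, it was −0.52. For VEGFA on day 10 the interval of the difference ran from −0.33 to 0.11, for VEGFC from −0.30 to 0.13, and for HGF from −0.35 to 0.01. ANGPT2 was 10.8 and 11.2 in shIL1R and 29.4 and 36.7 in shScr on day 0, without overlap, and the difference of −1.50 ± 0.33 had a limma adjusted p of 0.144. Without either shIL1R day 10 library, whose absence leaves the fold changes on days 0 and 4 as they are, the day 0 differences of ANGPT2, ESM1 and HGF passed (limma adjusted p = 0.0214, 0.033 and 0.0191 without replicate 1, and 0.0213, 0.034 and 0.0192 without replicate 2). For HGF on day 4 the difference was −0.29 ± 0.08 with all libraries (limma adjusted p = 0.12, DESeq2 adjusted p = 0.0461). The shIL1R day 10 libraries do not enter that difference, so its size could not change without either one, although its limma call did. Over all genes the number called on day 0 was 62 without replicate 1, 62 without replicate 2 and 9 with both. ANGPT1 lay higher in shIL1R than in shScr on day 0 in both libraries (358 and 434, against 230 and 296) with 0.59 ± 0.17 (limma adjusted p = 0.314).

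The interaction tests whether the change from day 0 differs between shIL1R and shScr. To day 10 it was called for FGF2 and HGF, both lower in shIL1R (2 of 9, background 2.41%, of which 0.876% higher and 1.54% lower). For FGF2 the difference between the changes was −1.27 ± 0.22 (limma adjusted p = 0.0179). For HGF it was −0.67 ± 0.12 (limma adjusted p = 0.0179), with levels that were higher in shIL1R than in shScr on day 0 and lower on day 10. Over the alternative settings the FGF2 value ran from −1.49 to −1.05 and the HGF value from −0.75 to −0.58. Each call was nevertheless lost without certain single libraries. The FGF2 adjusted p was 0.081 without shScr day 0 replicate 1, 0.0848 without shScr day 0 replicate 2, 0.104 without shIL1R day 0 replicate 2 and 0.101 without shScr day 10 replicate 2 (limma). The HGF adjusted p was 0.101 without shScr day 0 replicate 2, 0.0537 and 0.101 without shIL1R day 0 replicate 1 and 2, and 0.0876 without shScr day 10 replicate 2 (limma).

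Without shIL1R day 10 replicate 2, 4 genes had a called interaction to day 10, and over all genes the number called was 418 without that library and 336 with it. FGF2 (−1.05, limma adjusted p = 0.0217) and HGF (−0.72, limma adjusted p = 0.014) were joined by VEGFA (−0.57, limma adjusted p = 0.043) and, in the other direction, ANGPT2 (1.88, limma adjusted p = 0.023). With all libraries the VEGFA value was −0.45 ± 0.14 (limma adjusted p = 0.13) and the ANGPT2 value 1.34 ± 0.46 (limma adjusted p = 0.149).

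To day 4 no interaction was called among the 9 genes (background 0.0287%). At an unadjusted p below 0.05 there were 3, and the share of all genes at that level was not counted. None of the 9 was called by edgeR and 2 were by DESeq2, where these called 4 and 104 of all tested genes. HGF had a difference of −0.79 ± 0.12 (limma adjusted p = 0.0601, DESeq2 adjusted p = 4.05e-06). Its size could not change without either shIL1R day 10 library, since neither enters it, although its limma call did change. ESM1 had a difference of 1.76 ± 0.31 (limma adjusted p = 0.125, DESeq2 adjusted p = 1.8e-05).

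The partners of these genes were described from lists of pathway members. Of 7 further VEGF ligands and receptors 5 were tested, and between day 10 and day 0 all 5 rose in shIL1R and 4 in shScr, where 30% and 32.5% of all tested genes rose (the median log2 fold change of the 5 was 1.62 in shIL1R and 1.48 in shScr, against 0.01 over all genes in each). KDR, the main signalling receptor for VEGFA, rose by 4.09 ± 0.64 in shIL1R (limma adjusted p = 0.000216). It also rose in shScr (limma adjusted p = 9.13e-05), where no fold is given because each day 0 library held at most 3 reads. It averaged 8.70 ± 5.95, 47.6 ± 7.88 and 159 ± 80.8 normalized counts on days 0, 4 and 10 in shIL1R (SD, n = 2 each). In shScr it averaged 2.21 ± 0.769, 16.6 ± 14.1 and 74.2 ± 31.9. PGF, another ligand of FLT1, rose by 3.01 ± 0.38 in shIL1R and 2.47 ± 0.38 in shScr (limma adjusted p = 5.17e-05 and 0.000189). VEGFB, which also binds FLT1, rose by 1.62 ± 0.09 in shIL1R and 1.48 ± 0.09 in shScr (limma adjusted p = 1.31e-07 and 1.6e-07). FLT4, the receptor for VEGFC, held at most 5.06 normalized counts in any library and was not tested. NRP2, a co-receptor for VEGFC, was higher in shIL1R than in shScr on day 10 (0.42 ± 0.10, limma adjusted p = 0.0253), and not without shIL1R day 10 replicate 2 (limma adjusted p = 0.0955).

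Of 6 further genes around the angiopoietins 4 were tested, and all 4 changed to day 10 in both genotypes, 2 higher and 2 lower, where 60.3% of all tested genes changed in shIL1R and 63.8% in shScr. TEK, the receptor of both angiopoietins, averaged 2866 ± 542, 1591 ± 269 and 1622 ± 278 normalized counts on days 0, 4 and 10 in shIL1R. In shScr it averaged 1709 ± 92.6, 1163 ± 242 and 1115 ± 94.9 (SD, n = 2 each). To day 10 TEK fell, with −0.82 in shIL1R (limma adjusted p = 0.00241) and −0.62 in shScr (limma adjusted p = 0.0114), while its partner TIE1 rose. PTPRB, a phosphatase that acts on TEK, fell as well, with −1.11 in shIL1R (limma adjusted p = 0.00426) and −2.25 in shScr (limma adjusted p = 2.82e-05). ANGPTL4 rose by 4.06 ± 0.14 in shIL1R and 4.08 ± 0.14 in shScr (limma adjusted p = 1.7e-08 and 6.94e-09), and ANGPTL2 by 1.81 ± 0.16 and 1.36 ± 0.16 (limma adjusted p = 2.94e-06 and 2.08e-05). ANGPTL2 was the one gene of this list called between genotypes on day 10 (0.82 ± 0.16 higher in shIL1R, limma adjusted p = 0.0125).

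Of 14 further genes of the FGF axis 11 were tested, and between day 10 and day 0 1 rose and 7 fell in each genotype, where 30% of all tested genes rose and 30.3% fell in shIL1R, and 32.5% rose and 31.3% fell in shScr (the median log2 fold change of the 11 was −0.65 in shIL1R and −0.69 in shScr). Without shIL1R day 10 replicate 2 the shIL1R count was 1 higher and 6 lower. FGF1 fell, with −2.10 in shIL1R and −3.39 in shScr (limma adjusted p = 3.25e-06 and 8.4e-08). So did FGF5, with −2.39 in shIL1R and −2.74 in shScr (limma adjusted p = 3.81e-07 and 1.02e-07), and FGF7, a fibroblast product that acts on epithelium, with −2.56 in shIL1R and −2.43 in shScr (limma adjusted p = 3.59e-05 and 4.51e-05). FGF1 was also the one gene of the list called between genotypes on day 10, higher in shIL1R by 1.43 ± 0.19 (limma adjusted p = 0.00285), and its interaction was 1.29 ± 0.26 (limma adjusted p = 0.0313).

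MET, the HGF receptor, fell in both genotypes. It averaged 3556 ± 30.6, 2384 ± 389 and 885 ± 23.8 normalized counts on days 0, 4 and 10 in shIL1R, and 3699 ± 283, 1822 ± 109 and 893 ± 169 in shScr (SD, n = 2 each). To day 10 the log2 fold change was −2.01 in shIL1R (limma adjusted p = 5.33e-07) and −2.06 in shScr (limma adjusted p = 2.99e-07). PLAU, the urokinase protease, which can activate pro-HGF, rose by 1.08 ± 0.20 in shIL1R and 1.45 ± 0.20 in shScr (limma adjusted p = 0.000889 and 9.13e-05). Of 8 genes of the HGF axis 5 were tested, and 2 rose and 1 fell in shIL1R to day 10, with 3 rising and 1 falling in shScr, numbers called that are near the background of 60.3% of all genes in shIL1R and 63.8% in shScr.

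**Figure D4:**
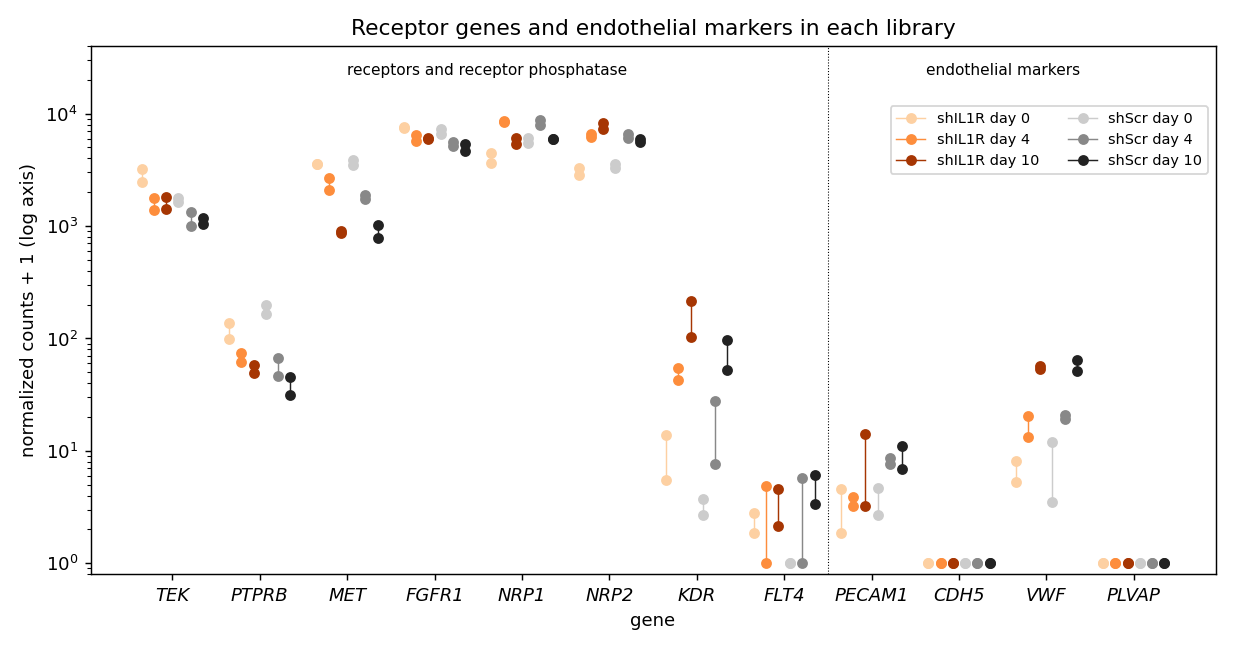
Normalized counts plus 1 (log axis) of receptor genes, the phosphatase PTPRB and endothelial markers in each library. Points are libraries, joined within a group, with shIL1R in orange and shScr in grey and darker shades for later days. TEK and MET are lower on days 4 and 10 than on day 0, KDR is higher, and CDH5 and PLVAP are at 0 in every library.

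VEGFA and ANGPTL4 are known targets of hypoxia-inducible factors, so a list of 16 hypoxia targets and regulators was counted. To day 10, 9 rose and 3 fell in shIL1R (8 and 2 without shIL1R day 10 replicate 2), and 11 rose and 2 fell in shScr, with medians of 0.40 and 0.79. Over all tested genes 30% rose and 30.3% fell in shIL1R, and 32.5% rose and 31.3% fell in shScr. CA9, a carbonic anhydrase, rose by 3.45 ± 0.26 in shIL1R and 4.44 ± 0.26 in shScr (limma adjusted p = 1.16e-06 and 1.41e-07). Between genotypes on day 10, 5 of the 16 were lower in shIL1R and none higher (4 lower without shIL1R day 10 replicate 2), where 4.85% of all tested genes were lower and 4.37% higher. Among them was HIF1A, a subunit of the hypoxia factor (−0.62 ± 0.11, limma adjusted p = 0.00737). Of 15 angiogenesis inhibitors 12 were tested, and 7 rose and 2 fell to day 10 in shIL1R, with 6 rising and 2 falling in shScr. Their median log2 fold changes were 1.16 in shIL1R and 0.73 in shScr. Over all tested genes 60.3% were called in shIL1R (30% higher, 30.3% lower) and 63.8% in shScr (32.5% higher, 31.3% lower). TNFSF15 rose by 4.60 ± 0.32 in shIL1R and 8.64 ± 0.32 in shScr (limma adjusted p = 5.76e-07 and 9.2e-09), and THBS2 by 2.00 ± 0.24 and 2.18 ± 0.24 (limma adjusted p = 2.71e-05 and 1.21e-05). TNFSF15 was also lower in shIL1R than in shScr on day 10 (3191 and 1333 normalized counts, against 14229 and 17970, limma adjusted p = 0.00106). Among 19 other secreted angiogenic factors, 3 rose and 7 fell to day 10 in shIL1R (background 30% and 30.3%) and 10 rose and 6 fell in shScr (background 32.5% and 31.3%). CXCL8, a chemokine, had 5272 and 884 normalized counts in shIL1R on day 10, against 38965 and 44346 in shScr (−4.27 ± 0.66, limma adjusted p = 0.00512). Without shIL1R day 10 replicate 2 the shIL1R count of the 19 was 6 higher and 6 lower, and the difference between the 2 genotypes' counts was not tested.

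Marker genes of endothelium and other tissues were then examined. Among 19 endothelial genes 8 were tested, CDH5 and PLVAP were at 0 in all 12 libraries, and PECAM1 held at most 13.2 normalized counts. ERG, EMCN, MMRN1, SOX17, SOX18 and NOS3 held at most 6.08. The summed level of the 19 was 2814 to 3759 in shIL1R and 1984 to 2129 in shScr on day 0, 1850 to 2322 and 1423 to 1826 on day 4, and 2426 to 2509 and 2192 to 2220 on day 10, with TEK the largest single contributor (1426 and 1818 in shIL1R and 1182 and 1048 in shScr on day 10). Between day 10 and day 0, 4 markers rose and 1 fell in shIL1R (4 and 2 without shIL1R day 10 replicate 2), and 4 rose and 2 fell in shScr, where 60.3% of all tested genes were called in shIL1R and 63.8% in shScr. TEK fell in both genotypes, as given above. CLEC14A, an endothelial lectin, fell in shScr (5.90 and 8.10 normalized counts on day 10 against 79.0 and 86.0 on day 0, limma adjusted p = 0.00764), and in shIL1R it held 61.3 ± 71.4 against 139 ± 105 (limma adjusted p = 0.134). ROBO4, a receptor of endothelial cells, rose in shIL1R (438 ± 210 normalized counts on day 10 against 163 ± 16.9 on day 0, limma adjusted p = 0.00092) and in shScr (768 ± 124 against 154 ± 1.27, SD, n = 2 each, limma adjusted p = 1.51e-05). VWF, a clotting factor carrier of endothelium, rose in shIL1R (54.6 ± 2.60 on day 10 against 5.74 ± 2.04 on day 0, limma adjusted p = 0.000333) and in shScr (57.2 ± 9.25 against 6.76 ± 6.03, limma adjusted p = 0.00024). The 7 fibroblast markers, collagens among them, summed to 305719 to 456461 normalized counts per library. To day 10 none rose and 5 fell in each genotype (median log2 fold change −0.63 in shIL1R and −0.75 in shScr). Over all tested genes 30% rose and 30.3% fell to day 10 in shIL1R, and 32.5% rose and 31.3% fell in shScr. The 8 pericyte and smooth muscle markers summed to 12215 to 17845. To day 10 1 of them rose and 2 fell in shIL1R and 1 rose and 3 fell in shScr, against the same shares over all genes. The one that rose in shScr was RGS5 (385 ± 3.20 on day 10 against 69.2 ± 2.22 on day 0, limma adjusted p = 0.000398), which held 103 ± 70.2 on day 10 against 86.6 ± 24.7 on day 0 in shIL1R (limma adjusted p = 0.875). The 4 epithelial markers summed to at most 10.8. The 5 leukocyte markers summed to 2849 to 9072, nearly all of it CD68, while CD3E was at 0 in every library and PTPRC held at most 3.04. Both tested leukocyte markers rose to day 10 in both genotypes, where 30% of all tested genes rose in shIL1R and 32.5% in shScr. CD68, a lysosomal protein of macrophages, averaged 7129 ± 1904 on day 10 against 2858 ± 28.0 on day 0 in shIL1R, and 8113 ± 1141 against 3003 ± 203 in shScr (limma adjusted p = 3.21e-05 and 1.27e-05). LAPTM5 held 37.2 and 6.77 on day 10 in shIL1R and 142 and 120 in shScr, against at most 3.59 in any day 0 library (limma adjusted p = 0.0144 in shIL1R and 0.000115 in shScr). The part of other cell types in these results was not tested.

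By length, VEGFC had the highest level on day 0, with means of 1814 normalized counts per kilobase of merged exon in shIL1R and 2059 in shScr, and VEGFA the highest on day 10, with 2918 in shIL1R and 3137 in shScr. HGF reached 1152 in shIL1R and 1411 in shScr per kilobase on day 4. ANGPT2 and TIE1 were the lowest on day 0 on this scale, at 1.62 and 5.34 in shIL1R and 4.88 and 8.13 in shScr. Exon lengths came from GENCODE v29, and the annotation behind the counts is not given.

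The genes most like each member were found from the 6 group means on the log2 scale, each centred on its own mean, as the smallest root mean square difference over the 6 groups. For TIE1 the nearest were MED12L (0.17) and ANGPTL4 (0.216), for VEGFA RHBDF1 (0.0568) and KDM6B (0.0924), and for FGF2 DUSP16 (0.072) and BICC1 (0.0825). HGF was nearest to C4orf32 (0.116) and MLK7-AS1 (0.14), VEGFC to STK17A (0.0718) and MDFIC (0.0887), and ANGPT1 to COL5A2 (0.0913) and ALPK2 (0.125). ANGPT2 and ESM1 had larger distances, the nearest being NPPC (0.474) for ANGPT2 and KCTD8 (0.431) for ESM1. The distance is not scaled to a gene's own range, and the group means of these genes spanned 5.48 and 3.17. FLT1, which varied least, was nearest to MSL1 (0.0489) and CAPN2 (0.05). Among the 9 genes themselves the closest pair was VEGFC with HGF (0.205) and the farthest ANGPT1 with ANGPT2 (2.22).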

How the data were processed

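The deposited table holds normalized counts per gene, a signal that scales reads by one factor per library. The submitters' processing notes name TopHat, HTSeq and DESeq2 and the build hg19, and the annotation, the strand setting and the versions are not given in the sources used here. Libraries were strand-specific, per the labels' protocols. Dividing a library's deposited values by their smallest nonzero value gave whole numbers (within 0.001 reads) in 100% of cases, so whole reads were recovered for the count tests edgeR 4.0.16 and DESeq2 1.42.0, run as alternatives. On them edgeR called 5734 genes between day 4 and day 0 and 8423 between day 10 and day 0 in shIL1R, and 5426 and 8920 in shScr.

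Tests used limma 3.58.1 (R 4.3.3) and log2(value + 1), with 6 group means fitted to the 12 libraries together and a trended eBayes step (residual degrees of freedom 6, prior 4.98). Fold changes are on that scale, which understates the change of low genes. The test took the 13924 of 27106 genes that reached 10 normalized counts in 2 or more libraries, and two-sided p-values were adjusted after Benjamini and Hochberg over all of them. There were 11 contrasts. The limma fit was also run on simulated counts for day 4 against day 0 in shScr, and its outcome is not reported here. The value 3 reads was taken as the floor for low counts. Replicate libraries differed beyond sampling noise (chi-square per degree of freedom 8.24 to 57.3). The labels give no batch or date.

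The 9 members and the lists of pathway genes and markers were chosen with earlier results of these data known. All members are named. From each list, up to 4 called genes with the largest log2 fold change per comparison may be named (all of them where fewer than 5 were called), and the 2 nearest genes in pattern of each member. IL1R1 is named as the targeted gene. HRAS, the overlapping genes, untested genes at or near 0 and TEK and MET levels were named after their values were seen. The alternatives tried were pseudocounts of 0.5 and 5, a filter of 50 and none, TMM, a quantile scaling, a block for the replicate number, the compared groups alone, edgeR, DESeq2 and each library left out. List counts without shIL1R day 10 replicate 2 were added after seeing the data. Promoters came from a RefSeq table of GRCh38.p14, another build than that of the counts.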

Additional observations from a re-analysis of the deposited data

Results flagged for a closer look

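The change from day 0 to day 10 differed between the genotypes for 2 of the 9 genes by the interaction term of the limma fit. For FGF2 the change in shIL1R minus the change in shScr was −1.27 on the log2 scale, and for HGF it was −0.67. FGF2 was higher on day 10 than on day 0 in both shScr libraries, whereas the shIL1R days overlapped. Without shIL1R day 10 replicate 2 the FGF2 change in shIL1R was 0.48 and the interaction −1.05. HGF was lower on day 10 than on day 0 in both shIL1R libraries, whereas the shScr days overlapped. Between genotypes HGF gave 0.50 ± 0.08 on day 0 and −0.17 ± 0.08 on day 10 (limma adjusted p = 0.0656 and 0.211). Each interaction call was lost without certain single libraries, as given above. HRAS also differed between genotypes on day 10 (37518 and 25280 normalized counts in shIL1R, against 51791 and 50789 in shScr), and its part in these differences was not tested.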

How the results depend on the processing

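No called log2 fold change of a member reversed. In the settings that kept all libraries 477 called values kept their call and 7 lost it. Calls were also lost with 1 library left out. A left-out library can change a fold change only where its group is compared. In the other comparisons its sign and size were fixed in advance, so those fits say nothing on reversal. The number of members called moved by over 1.5 times with the compared groups fitted alone, to 4 between day 10 and day 4 in shIL1R (7 with all groups) and 1 between genotypes on day 10 (2 with all groups). With DESeq2 it was 3 between genotypes on day 0, 1 on day 4 and 2 for the interaction on day 4, against 0 for each in limma. Over all tested genes DESeq2 called 136, 469 and 104 in these comparisons, and limma 9, 39 and 4. The cause was not tested.

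With 1 library left out, the lone library of its group being assumed to vary like the others, the number called in shIL1R was 7 to 8 (day 4 against day 0), 5 to 7 (day 10 against day 0) and 5 to 8 (day 10 against day 4), and in shScr 6 to 7, 5 to 6 and 8 to 8. Between genotypes it was 0 to 3 on day 0, 0 to 1 on day 4 and 0 to 3 on day 10, and for the interactions 0 to 1 on day 4 and 0 to 4 on day 10.

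Values that changed sign were all uncalled. Quantile normalization gave −0.14 for HGF between day 10 and day 0 in shScr and 0.0096 for the ESM1 interaction on day 10. FGF2 between day 4 and day 0 in shIL1R was 0.0049 with edgeR, and FLT1 between genotypes on day 0 was 0.023 with edgeR and 0.025 with DESeq2. With the replicate number as a block within each genotype, FLT1 between genotypes was −0.25 on day 4 and −0.26 on day 10, and FLT1 between day 4 and day 0 in shIL1R passed (0.70, limma adjusted p = 0.0422). The numbers were not taken as pairs, since 4 of 15 pairs of groups had a correlation of same-numbered deviations over 0.1 (−0.10 to 0.23). Within shIL1R the 3 pairs of days gave 0.23, 0.20 and 0.053, and within shScr −0.045, −0.10 and 0.13. The count over 15 pairs mixes the genotypes, and a link between same-numbered libraries within shIL1R was not tested.

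Left-out libraries gave these ranges. In shScr, day 10 against day 0 ran from −0.51 to 0.11 for ESM1 and −0.041 to 0.13 for HGF, and day 10 against day 4 from −0.63 to 0.25 for FLT1. In shIL1R, FGF2 ran from −0.21 to 0.18 (day 4 against day 0) and FLT1 from −0.40 to 0.0070 (day 10 against day 4). Between genotypes FLT1 ran from −0.47 to 0.39 on day 0 and −0.34 to 0.55 on day 4, and on day 10 VEGFA from −0.23 to 0.015 and ANGPT2 from −0.70 to 0.38. Interactions ran from −0.19 to 0.70 (TIE1) and −0.30 to 0.59 (FLT1) on day 4, and from −0.45 to 0.18 (ESM1), −0.66 to 0.22 (TIE1) and −0.29 to 0.56 (FLT1) on day 10.

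Over all genes, the interaction on day 10 was called for 336 genes and for 42 to 2123 with a library left out, and the genotypes on day 10 differed for 1283 genes, 73 with the groups alone and 115 to 3521 with a library left out. The genotypes differed for 9 genes on day 0 (2 to 136 across the settings with all libraries) and 39 on day 4 (1 to 469), the interaction on day 4 for 4 (0 to 104), and day 10 against day 4 in shIL1R for 5000 (1901 with the groups alone). With 2 libraries a group, the SE of a log2 fold change between groups was largest for ANGPT2 (0.33) and TIE1 (0.30) among the 9 genes.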

Other observations

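CLEC14A, an endothelial membrane lectin, separated the 2 replicates of shIL1R on every day. Replicate 2 held 213, 114 and 112 normalized counts on days 0, 4 and 10, and replicate 1 held 64.7, 26.4 and 10.8. The shScr libraries held 79.0 and 86.0 on day 0, 32.3 and 33.1 on day 4, and 5.90 and 8.10 on day 10, close to shIL1R replicate 1. KCNJ8, a pericyte potassium channel, held 43.0, 25.5 and 27.1 normalized counts in shIL1R replicate 2 and 13.5, 5.86 and 2.40 in replicate 1 on these days. Its shScr libraries held 32.2 and 35.9 on day 0, 11.4 and 8.52 on day 4, and 4.72 and 1.01 on day 10. On day 0 they were thus closer to shIL1R replicate 2. Both genes were singled out after their values were seen.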
